A study of Rattus norvegicus with 15 samples.

Results

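The 10 genes described here, ATF4, DDIT3, TRIB3, CHAC1, ASNS, PSAT1, PHGDH, MTHFD2, SLC7A11 and SESN2, were taken by symbol from a table of gene read counts. All 10 were among its 17463 genes, and all 10 passed the filter on low counts that left 11665 genes for testing. Bulk RNA sequencing covered pieces of mammary tumours that N-nitroso-N-methylurea (NMU), a DNA-alkylating carcinogen, had induced in Fischer rats. Of the 15 libraries, 6 came from vehicle-treated rats and 9 from rats treated with midkine protein, a heparin-binding growth factor, at 300 ug/kg. Midkine was given 3 times per week in the 2 weeks before each intraperitoneal NMU injection of 50 mg/kg. Neither the vehicle's composition nor the rats' age is stated in the sources used here, and the NMU schedule is described there for midkine rats only. Libraries are named by group and title number. Vehicle 2-1 and 2-2 share a number, as do midkine 3-1 and 3-2, and midkine 4-1, 4-2 and 4-3, and no label says whether a shared number marks 1 rat. Nothing states that the libraries of a group came from separate rats, so each p-value refers to library-to-library spread, some of which could be technical.

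ATF4 is a transcription factor whose protein is made in larger amounts when the kinases PERK, GCN2, PKR or HRI phosphorylate the translation factor eIF2 in response to unfolded protein, missing amino acids, viral RNA or heme and mitochondrial stress. It dimerises with CEBP family proteins and turns on genes that import and synthesise amino acids, charge tRNAs and, when stress lasts, limit growth. Much of ATF4's control acts on its translation, so its mRNA level does not measure the activity of the protein. Tumour cells are known to use these genes when amino acids are scarce.

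Library totals ran from 4925504 to 8486523 reads with a median of 7252603, and the 10 genes held between 11 and 9032 reads each per library. Midkine 3-2 stood apart for these genes and midkine 1 held large amounts of skeletal muscle RNA, so results are given with and without them where they matter. The marker genes of the labelled tissue were present: the summed level of the epithelial markers was 6317 to 8903 CPM (reads scaled to a common library size, after scaling by trimmed mean of M-values) in vehicle and 2801 to 13600.3 in midkine libraries. In tissue pieces, fewer cells of a type and less RNA per cell cannot be told apart.

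The composite element that ATF4 and CEBP proteins bind was searched for as TGATGNAA on both strands of the 250 bases before each start site (RefSeq promoters, build GRCr8, all 10 genes matched). TRIB3 and CHAC1 held 1 match each, and the other 8 genes held none in this window, which says nothing of sites elsewhere. The letters occurred in 3.40% of all 33469 promoters and in 1.92% of the 9709 that matched a tested gene. The sequences below are shown because these genes reached the highest folds after SLC7A11 in midkine 3-2, with the match in capitals, printed as its reverse complement because it lies on the opposite strand.
TRIB3, chr3:161275534-161275584, minus strand, match 21 to 14 bases before the start: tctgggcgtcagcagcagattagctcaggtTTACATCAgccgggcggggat
CHAC1, chr3:126795934-126796001, plus strand, match 167 to 160 bases before the start: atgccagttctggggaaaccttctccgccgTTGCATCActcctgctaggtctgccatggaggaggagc
A second element, TGACNNNGC, matched in SESN2 alone of the 10 and in 10.1% of all promoters, and overlapped neither printed match. These matches are descriptions of letters, with no binding measured.

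The highest levels of most of these genes lay in 1 tumour library, not across 1 treatment group. Midkine 3-2 held the highest level of 8 of the 10 genes among the 15 libraries, against 20.6% of all tested genes, and was at least 2-fold above the median of the other 14 for 10 of 10, against 18.8%. It was at least 3-fold above it for 7 of the 10 genes, against 10.2%, and at least 5-fold for 5, against 4.56%. Its folds over that median ran from 2.13 for DDIT3 to 89.7 for SLC7A11, with a median of 4.39 over the 10 genes and 0.949 over all genes tested. DDIT3 was higher in midkine 4-3 and CHAC1 in midkine 1. Midkine 3-2 was the lowest library for 0 of the 10, against 27.6% of all genes, which follows from the 2-fold levels above. The 10 genes were chosen with earlier results of these data known. Their shares in midkine 3-2 are thus descriptions and no independent test. Between midkine and vehicle, none of the 10 genes passed the test (edgeR quasi-likelihood F test, Benjamini-Hochberg adjusted p under 0.05), against 0% of all genes in either direction. None of the 10 had groups that did not overlap, against 0.0171% of all genes. Without adjustment, 2 of the 10, CHAC1 and SLC7A11, had a p under 0.05 and were higher, against 7.96% of all genes higher and 2.13% lower. DESeq2 called 0 of the 10, against 0.66% of all genes higher and 0.0514% lower, and limma-voom called 0, against 0% either way. By DESeq2, 2 of the 10 had an unadjusted p under 0.05, against 10.7% of all genes, and by limma-voom 0 did, against 5.16%.

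**Figure D1:**
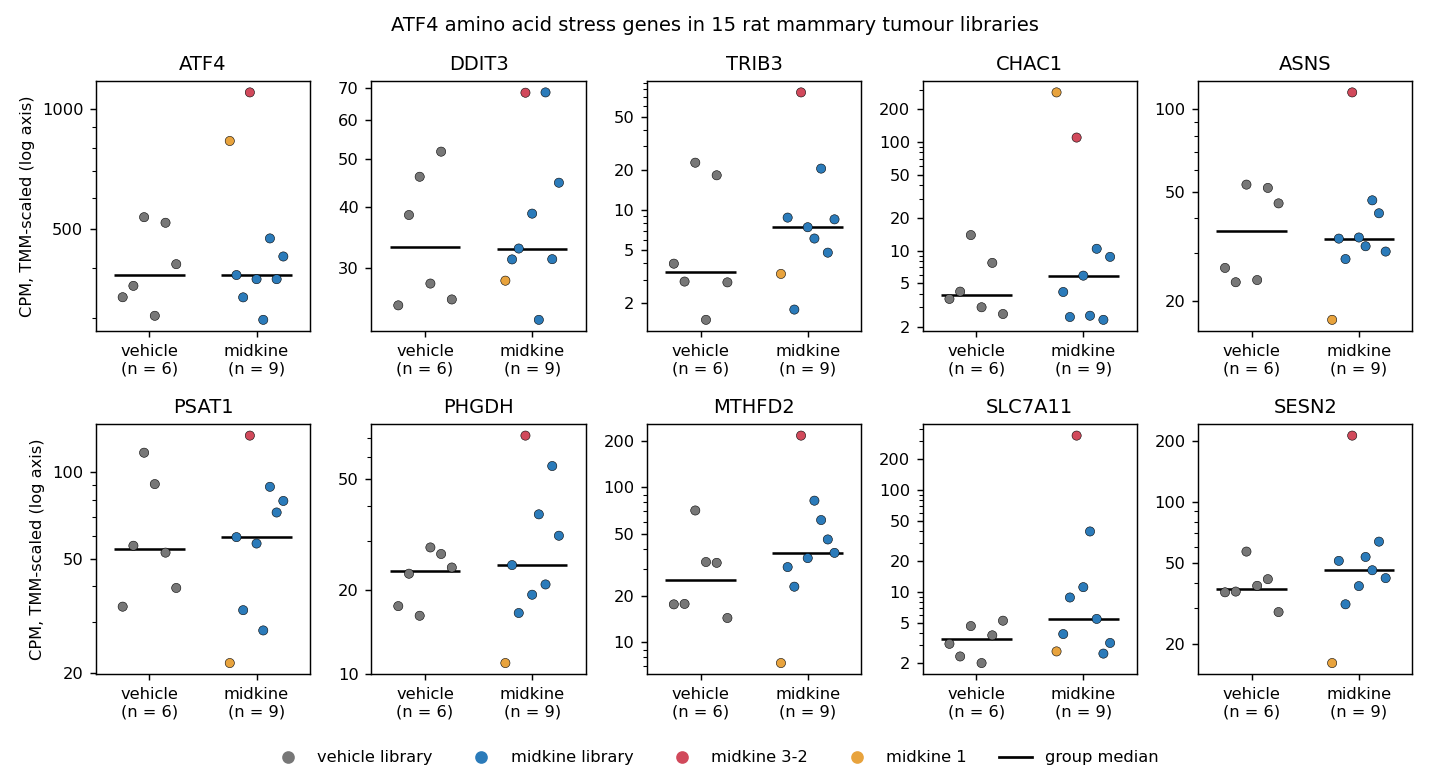
Level of each of the 10 genes in every library (CPM on a log axis, scaled by trimmed mean of M-values), 1 panel per gene and 1 point per library, vehicle and midkine side by side. Midkine 3-2 is the highest point in 8 panels, midkine 1 is the highest for CHAC1, and the groups overlap in all 10.

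ATF4, the factor itself, was at 303 CPM at the lowest, 385 at the median and 536 at the highest in the 6 vehicle libraries. In the 9 midkine libraries the lowest, median and highest were 296, 384 and 1100.35 CPM. The medians lay close together, and only midkine 3-2 and midkine 1, at 831 CPM, exceeded the highest vehicle library. For midkine 1 this depended on the scaling, since by total counts alone it ranked 5 of the 15 libraries. The log2 fold change was 0.32 (SE 0.29, edgeR adjusted p = 0.772), and 0.09 (SE 0.22, edgeR adjusted p = 0.932) without midkine 3-2.

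DDIT3, also called CHOP, encodes a CEBP family factor that promotes cell death under lasting stress. Its vehicle libraries ran from 25.2 through a median of 33.2 to 51.8 CPM, and its midkine libraries from 23.5 through 32.9 to 68.4. Midkine 4-3 (68.4) and midkine 3-2 (68.3) were the highest, and the groups overlapped. Midkine minus vehicle, the log2 fold change was 0.19 (SE 0.26, edgeR adjusted p = 0.868), and 0.06 (SE 0.25, edgeR adjusted p = 0.954) without midkine 3-2. DDIT3 had the smallest fold in midkine 3-2 of the 10 genes, 2.13, which was the 83.0th percentile of all genes tested.

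TRIB3, a pseudokinase that binds ATF4 and dampens its activity, ran from 1.51 through 3.44 to 22.6 CPM in vehicle libraries. In midkine libraries it ran from 1.80 through 7.44 to 75.9 CPM. Midkine 3-2 was 13.9-fold above the median of the other 14 libraries and 3.36-fold above the next. That next level came from vehicle 3, and midkine 4-3 (20.4) and vehicle 5 (18.2) followed, so high TRIB3 was found in both groups. The log2 fold change was 0.83 (SE 0.82, edgeR adjusted p = 0.794), and without midkine 3-2 it was -0.16 (SE 0.64, edgeR adjusted p = 0.954), the opposite direction.

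SLC7A11, or xCT, carries cystine into the cell in exchange for glutamate and so feeds glutathione synthesis. Its vehicle libraries were low, from 2.01 through 3.43 to 5.23 CPM. Its midkine libraries ran from 2.49 through 5.45 to 342 CPM. Midkine 3-2 was 89.7-fold above the median of the other 14, the 99.9th percentile of all genes, and 8.71-fold above the next library. The values were not spread evenly over the midkine tumours. Midkine 4-2 (39.2 CPM), 4-1 (11.2), 3-1 (8.83) and 4-3 (5.45) followed midkine 3-2, and all 5 libraries with title numbers 3 and 4 lay above all of the other 10. The remaining 4 midkine libraries, at 2.49 to 3.87 CPM, lay within the vehicle range. Of all genes tested, 0.257% had those 5 libraries above the other 10 and 0.223% below them, and SLC7A11 was the 1 of the 10 genes that did, a pattern noted after its values were seen and not tested. The summed B and plasma cell markers split in the same way, at 3.84 to 565 CPM in the 5 libraries and 0.372 to 3.73 in the other 10, and their part in the SLC7A11 values was not tested.

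The midkine contrast for SLC7A11 had a log2 fold change of 3.73 (SE 1.24, edgeR adjusted p = 0.399), and 1.46 (SE 0.63, edgeR adjusted p = 0.494) without midkine 3-2. Without all 5 libraries numbered 3 and 4 it was -0.19. DESeq2 replaced the count of midkine 3-2 as an outlier and gave 1.38 (SE 0.58, DESeq2 adjusted p = 0.297).

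CHAC1, an enzyme that breaks down glutathione, ran from 2.61 through 3.90 to 13.9 CPM in vehicle libraries. In midkine libraries it ran from 2.31 through 5.89 to 285 CPM. Midkine 1 (285) and midkine 3-2 (110) stood far above the other 13 libraries, the highest of which was vehicle 3. The log2 fold change was 3.03 (SE 1.20, edgeR adjusted p = 0.431), and 2.77 (SE 1.23, edgeR adjusted p = 0.508) without midkine 3-2. It was 1.70 without midkine 1 and -0.15 (SE 0.48) without both. DESeq2 replaced the count of midkine 1 as an outlier and gave 1.59 (SE 0.81, DESeq2 adjusted p = 0.460).

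Midkine 1 showed a different pattern from midkine 3-2. It was the highest library for CHAC1 and the next to highest for ATF4, but the lowest of the 15 for ASNS, PSAT1, PHGDH, MTHFD2 and SESN2, 5 of the 10 genes, against 16.5% of all genes tested. Its summed skeletal muscle markers were at 330394 CPM, against 334 to 767 in vehicle libraries, and their part in these values was not tested. Its scaling factor was 0.553, so levels after scaling are higher than by its total alone. By its total, ATF4 was at 460 CPM rather than 831, ranking 5 of 15, and CHAC1 at 158 rather than 285, still the highest. By that measure it was the lowest library for 7 of the 10 genes, the same 5 with DDIT3 and SLC7A11, against 50.8% of all genes tested. CHAC1 rested on 1199 reads there.

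ASNS makes asparagine from aspartate and glutamine and is a textbook marker of amino acid limitation. Its vehicle libraries ran from 23.4 through 35.9 to 53.1 CPM and its midkine libraries from 17.1 through 33.8 to 115. Midkine 3-2 was 2.16-fold above the next library, vehicle 3, and vehicle 5 and midkine 4-3 came next. The log2 fold change was 0.18 (SE 0.36, edgeR adjusted p = 0.909), and -0.17 (SE 0.25, edgeR adjusted p = 0.861) without midkine 3-2.

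PHGDH and PSAT1 catalyse successive steps of serine synthesis from glycolysis. PHGDH ran from 16.1 through 23.5 to 28.4 CPM in vehicle and from 10.9 through 24.5 to 71.5 in midkine libraries, where midkine 3-2 and midkine 5 (55.6) were the highest. PSAT1 ran from 34.0 through 53.9 to 117 CPM in vehicle and from 21.6 through 59.4 to 134 in midkine libraries. Vehicle 3 was within 1.15-fold of midkine 3-2 for PSAT1. The log2 fold changes were 0.50 (SE 0.36, edgeR adjusted p = 0.689) for PHGDH and -0.02 (SE 0.38, edgeR adjusted p = 0.991) for PSAT1. Without midkine 3-2 they were 0.26 (SE 0.31, edgeR adjusted p = 0.828) and -0.24 (SE 0.35, edgeR adjusted p = 0.872). The sign of the PSAT1 value turned on leaving out any 1 of 5 libraries, vehicle 3, vehicle 4, midkine 1, midkine 3-1 or midkine 4-2, with values from 0.061 to 0.23.

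MTHFD2, a mitochondrial enzyme that passes serine's carbon on to purine synthesis, ran from 14.4 through 25.2 to 71.0 CPM in vehicle libraries. In midkine libraries it ran from 7.36 through 37.8 to 216 CPM. Midkine 3-2 was 2.63-fold above the next, midkine 4-2 (82.2), and vehicle 3 followed. The log2 fold change was 0.95 (SE 0.58, edgeR adjusted p = 0.614), and 0.39 (SE 0.46, edgeR adjusted p = 0.829) without midkine 3-2.

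SESN2, a sensor of leucine that restrains mTORC1, ran from 28.8 through 37.5 to 57.0 CPM in vehicle libraries. In midkine libraries it ran from 16.2 through 46.2 to 212 CPM. Midkine 3-2 was 3.32-fold above the next, midkine 5 (63.8). Between the groups SESN2 had a log2 fold change of 0.64 (SE 0.43, edgeR adjusted p = 0.665), and 0.11 (SE 0.25, edgeR adjusted p = 0.921) without midkine 3-2.

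Counted over the 10 genes, 9 had a log2 fold change above 0 with all 15 libraries, against 55.7% of all genes, and 1 below 0, against 44.3%. Without midkine 3-2, 7 lay above 0, against 54.1%, and 3 below, against 45.9%. The median log2 fold change of the 10 was 0.57 beside 0.04 over all genes. Without midkine 3-2 it was 0.10 beside 0.03, and again 0 of the 10 passed the test by edgeR or limma-voom, against 0% of all genes. DESeq2 also called 0 of the 10 then, against 0.155% of all genes higher and 0.0517% lower. At an unadjusted p under 0.05 there was 1 of the 10 by DESeq2, against 9.65% of all genes, 0 by limma-voom, against 5.16%, and 2 by edgeR. The 2 by edgeR, CHAC1 and SLC7A11, were higher in midkine libraries, against 6.86% of all genes higher and 2.41% lower. For the 8 genes other than CHAC1 and SLC7A11, the values without midkine 3-2 lay between -0.24 and 0.39.

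**Figure D2:**
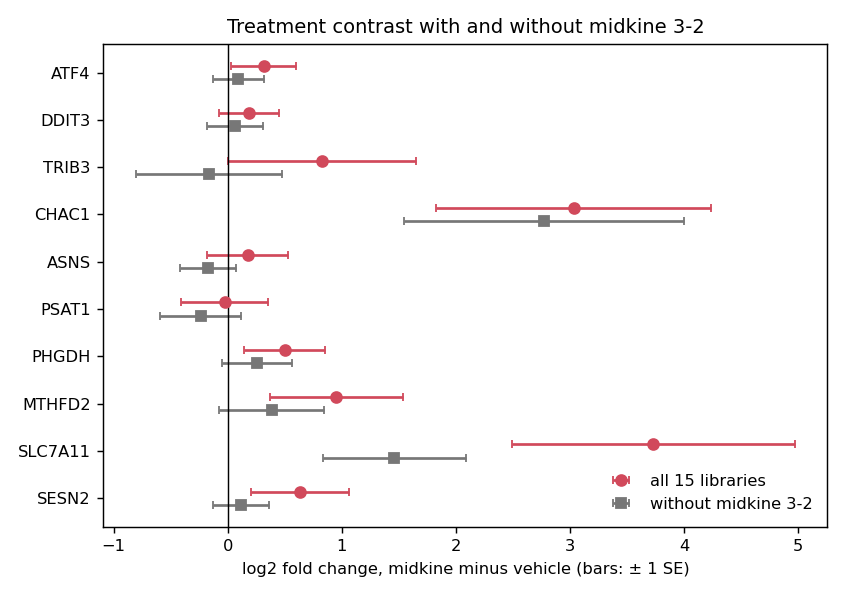
Log2 fold change of midkine over vehicle for each of the 10 genes with all 15 libraries and without midkine 3-2, with bars of 1 standard error from edgeR. The values without midkine 3-2 lie nearer 0 for SLC7A11 and SESN2, while CHAC1 stays at 2.77.

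Midkine 3-1, which shares its title number with midkine 3-2, had a median rank of 13 among the 15 libraries over the 10 genes. It lay below the other libraries' median for 9 of them, against 49.7% of all genes tested. The exception was SLC7A11, for which it ranked 4. By total counts alone in place of the scaled ones, the folds of midkine 3-2 were lower, from 1.95 for DDIT3 to 84.9 for SLC7A11. Its summed epithelial markers were the highest of all libraries, 13600.3 CPM beside a median of 6906 and a highest of 12992.7 in the other 14. Of these 12 genes, 4 were highest there and 3 lay below the other libraries' median. Its summed basal myoepithelial markers ranked 14 of 15, at 2419.6 CPM beside 6894, with 7 of 8 genes below the other libraries' median. Its T and NK cell markers summed to 680 CPM beside 89.9. Its skeletal muscle markers summed to 32.2, the lowest of all, with 34.0 the lowest of the other 14. Midkine 4-2 had higher summed T and NK cell markers still, 1788 CPM. It was the highest library for none of the 10 genes, next to highest for MTHFD2 and SLC7A11, and lowest for ATF4 and DDIT3. The part of cell makeup in the levels of midkine 3-2 was not tested.

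Other genes of the same response were read from lists chosen by function, with earlier results of these data known. Their shares in midkine 3-2 are thus descriptions and no independent test. Of 21 amino acid supply genes, 9 were at least 2-fold above the other libraries' median in midkine 3-2, against 18.8% of all genes, with a list median of 1.72. The transporters SLC1A4, at 54.0 CPM beside 5.71 (9.46-fold), and SLC7A1, at 392 beside 64.2 (6.10-fold), led it. In the same list, 7 genes lay below the other libraries' median, against 52.4% of all genes. Of 13 tRNA genes, 12 of them synthetases that load amino acids onto tRNAs and the other the tRNA exporter XPOT, 13 were highest in midkine 3-2, against 20.6% of all genes, with a median fold of 2.32. The synthetase genes CARS, TARS1 and IARS1 reached 4.31-, 4.29- and 3.93-fold. Of 20 stress genes, 9 were at least 2-fold up there, against 18.8% of all genes, and 2 lay below the other libraries' median. The stress factor ATF3 was at 299 CPM beside 11.2 and the cytokine GDF15 at 69.9 beside 4.85. PPP1R15A, the phosphatase subunit that reverses eIF2 phosphorylation, was at 484 CPM beside 58.6.

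The kinases upstream of ATF4 differed among themselves in midkine 3-2. EIF2AK3 (PERK) was at 101 CPM beside 38.4, or 2.64-fold, whereas EIF2AK4 (GCN2), EIF2AK2 (PKR) and EIF2AK1 (HRI) were at 1.07-, 1.04- and 0.946-fold. OMA1 and DELE1, which relay mitochondrial stress to HRI, were at 0.350- and 0.436-fold. Of 20 genes of protein folding in the endoplasmic reticulum, 2 were at least 2-fold up there, against 18.8% of all genes, and 12 lay below the other libraries' median, against 52.4%. ERN1, the IRE1 sensor, was at 109 CPM beside 15.6, while XBP1, whose mRNA IRE1 splices, was at 192 beside 323. Among 15 targets of NRF2, the factor of the oxidative stress response that also drives SLC7A11, 8 were at least 2-fold up in midkine 3-2, SLC7A11 itself being 1 of them. The share over all genes was 18.8%, and 5 of the 15 targets lay below the other libraries' median. SRXN1, which repairs oxidised peroxiredoxins, was at 455 CPM beside 15.4, HMOX1, which degrades heme, at 2097 beside 80.1, and NQO1, a quinone reductase, at 182 beside 11.5.

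**Figure D3:**
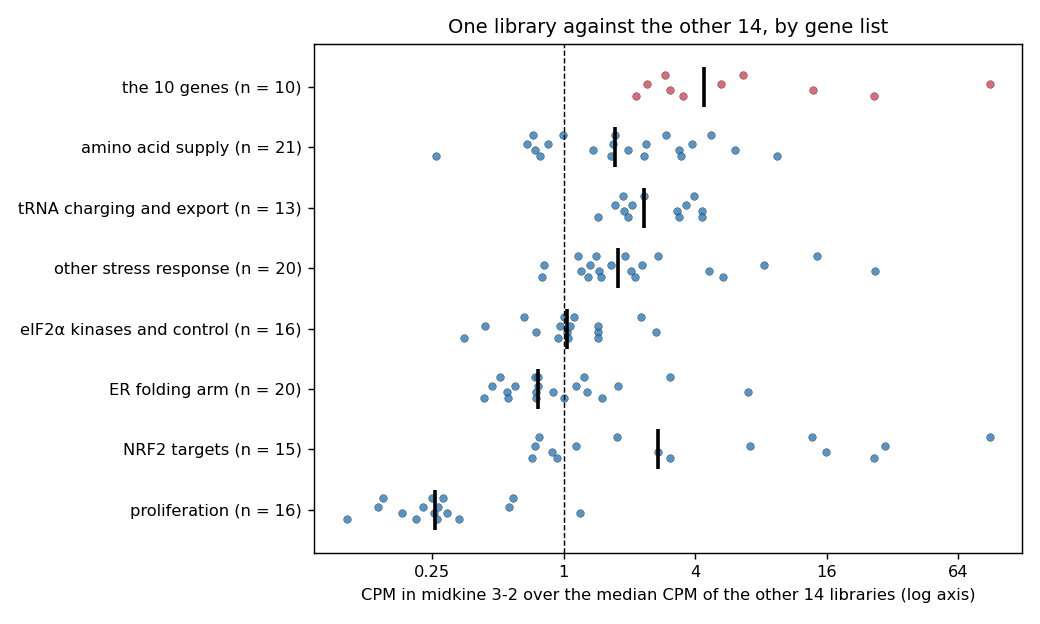
Level in midkine 3-2 over the median of the other 14 libraries (fold, log axis) for each gene of the lists, 1 point per gene and a line at each list's median. All genes tested have a median of 0.949, the 10 genes described here 4.39, the tRNA genes 2.32 and the proliferation genes 0.258.

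In the midkine contrast none of these lists had a gene past the edgeR test, as for all 11665 genes (0 past it, 1178 at an unadjusted p under 0.05). DESeq2 called 77 genes higher and 6 lower over the whole table. Of the named list genes, SLC7A8, an exchanger of neutral amino acids, had a log2 fold change of 1.82 (SE 0.53, edgeR adjusted p = 0.399), while DESeq2 called it with an adjusted p of 0.0428. The tRNA list had 12 of 13 genes above 0 with all libraries, against 55.7% of all genes, and 4 without midkine 3-2, against 54.1%.

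How the 10 genes moved together from tumour to tumour was described over their 45 pairs, on log2 CPM of the 15 libraries, some of which share a title number. Spearman's rho was above 0 for 43 pairs, with a median of 0.471. After adjustment over the 45 pairs (permutation test, 100000 draws, two-sided), 5 pairs passed by rho and 24 by Pearson's r. Without midkine 3-2 the median rho was 0.349, and 2 pairs passed by either measure.

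MTHFD2 and SESN2 were the pair with the highest rho, 0.893 (permutation p = 2e-05, adjusted 0.0009), with r = 0.914 (permutation p = 1e-05, the smallest these draws can give, adjusted 0.00045). Leaving out the 2 libraries farthest from the median of MTHFD2 gave r = 0.811, and r was 0.950 within the 6 vehicle and 0.932 within the 9 midkine libraries. Without midkine 3-2 rho was 0.868. ATF4 and CHAC1 followed with rho = 0.839 (permutation p = 0.00017, adjusted 0.00382) and r = 0.924 (permutation p = 6e-05, adjusted 0.00135), and r = 0.818 without the 2 farthest libraries. Within vehicle r was 0.827, within midkine libraries 0.940, and without midkine 3-2 rho was 0.807. By total counts alone, rho for ATF4 and CHAC1 was 0.854 (permutation p = 9e-05, adjusted 0.00202). Their r was then 0.748, and 0.577 without the 2 farthest libraries.

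The other pairs that passed by rho were TRIB3 with ASNS (0.754), TRIB3 with SESN2 (0.714) and DDIT3 with TRIB3 (0.693). Their permutation p-values were 0.00183, 0.00387 and 0.00549, or 0.0274, 0.0435 and 0.0494 after adjustment. Their Pearson r was 0.831, 0.739 and 0.805, and 0.666, 0.544 and 0.652 without the 2 farthest libraries. Without midkine 3-2 none of the 3 passed, with adjusted permutation p-values of 0.107, 0.153 and 0.153 by rho. With ATF4 mRNA, CHAC1 was the 1 gene that passed by rho. The next coefficients were those of TRIB3 (rho = 0.657), DDIT3 (0.643) and ASNS (0.532), above the 95th percentile of all genes tested against ATF4, but their permutation p-values after adjustment were 0.0532, 0.0532 and 0.0974. Without midkine 3-2 those rho values were 0.578, 0.578 and 0.424, and r for ASNS was 0.014. Without midkine 3-2 and midkine 1, a choice made after seeing the data, they were 0.769, 0.753 and 0.780. Each then passed by rho, at an adjusted permutation p of 0.0279, and r for ASNS was 0.813. PSAT1 (0.343), SESN2 (0.186), SLC7A11 (0.171), MTHFD2 (0.129) and PHGDH (-0.11) had lower coefficients with ATF4 over the 15 libraries. These differences between coefficients were not tested.

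**Figure D4:**
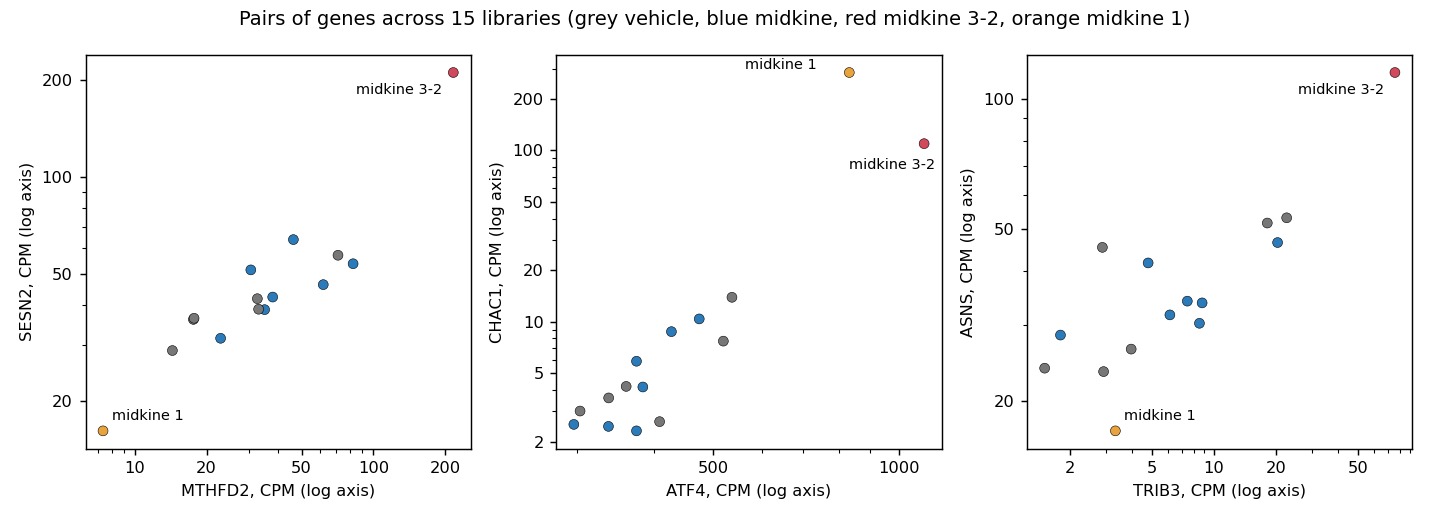
MTHFD2 against SESN2, ATF4 against CHAC1 and TRIB3 against ASNS (CPM, log axes), 1 point per library, with midkine 3-2 and midkine 1 marked. MTHFD2 and SESN2 rise together in both groups, with r = 0.950 in vehicle and 0.932 in midkine libraries, and midkine 3-2 lies at the upper end of all 3 panels except for CHAC1, where midkine 1 lies higher.

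The genes whose order over the 15 libraries was most like each of the 10 were listed by Spearman's rho over all genes tested. For ATF4 they were TFRC (0.925), EIF4E (0.914) and TXNL1 (0.911), and for CHAC1 they were KLHL22 (0.925), THOC7 (0.907) and KLF5 (0.904). For TRIB3 they were UAP1 (0.889), UBE2F (0.882) and CDC73 (0.875), and for DDIT3 they were GCNT3 (0.854), SLC1A1 (0.825) and HK2 (0.811). For MTHFD2 they were ARHGDIA (0.932), ARF6 (0.929) and CORO1C (0.925), and for SESN2 they were TUBA1C (0.904), CDC25B (0.868) and PITPNB (0.864). For PSAT1 they were TUBB6 (0.939), CYP51 (0.939) and NASP (0.918), and for PHGDH they were PPP1R9B (0.821), FBXL7 (0.814) and SUFU (0.814). For SLC7A11 they were MCOLN3 (0.890), PRR13 (0.889) and MYO1D (0.879), and for ASNS they were WDR45B (0.889), ARF4 (0.868) and SLC39A14 (0.854). Averaged over the 10 genes, ZFAND2A was the most alike, with a mean rho of 0.636.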

How the data were processed

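The authors deposited whole-number read counts per gene symbol for 15 libraries, which carry no normalization per the file headers. RNA was poly(A)-selected and read as 150-bp pairs, per the labels' protocols. The genome build is rn6, per the submitters' processing notes. Strand setting, counting mode, annotation and aligner version: not given in the sources used here. Reads of overlapping genes or near-identical copies may thus be shared.

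Libraries were grouped by the treatment label. Libraries of 1 group all differed by more than sampling noise (lowest chi-square over its degrees of freedom 19.9). Counts were tested in R 4.3.3 with edgeR 4.0.16 (expression filter by group, scaling by trimmed mean of M-values, quasi-likelihood F test, Benjamini-Hochberg over all genes tested), with and without midkine 3-2. SEs are the fold change over the root of F. DESeq2 1.42.0 and limma 3.58.1 were alternatives. The code was tested on simulated data. Other genes were named by rule: the 4 smallest p and 3 highest midkine 3-2 folds of the lists, and the 3 genes most alike each member. The rule also allowed MDK and any gene of eIF2 control, and SESN1 and CHAC2 fall outside it and were chosen with their values known. Members and lists were chosen with earlier results of these data known.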

Additional observations from a re-analysis of the deposited data

How the results depend on the processing

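Counts of genes called were 0 in each direction by edgeR, also in all 15 fits that left out 1 library (range 0 to 0), while DESeq2 called 77 higher and 6 lower over all libraries, and 18 higher and 6 lower without midkine 3-2. Unadjusted p-values under 0.05 numbered 1178 by edgeR and 1249 by DESeq2 over all libraries, and 1075 and 1119 without midkine 3-2. Of 240 values of the 10 genes over 24 settings, 221 kept their direction and side of the threshold and 19 reversed. The cause was not tested. The reversed log2 fold changes without both midkine 3-2 and midkine 1, a choice made after seeing the data, were -0.10 for ATF4, -0.055 for TRIB3, -0.15 for CHAC1 and -0.073 for ASNS, and -0.035 for SRXN1. Without midkine 3-1, 3-2, 4-1, 4-2 and 4-3 they were -0.065 for DDIT3, -0.41 for TRIB3, -0.26 for ASNS, -0.0065 for MTHFD2 and -0.19 for SLC7A11. PSAT1 was 0.00023 by DESeq2 and 0.00065 with RLE scaling. MDK, the gene of midkine itself, had 0.07, and -0.051 by total counts and -0.073 by limma-voom. Leaving out 1 library gave -0.16 to 1.39 for TRIB3, -0.17 to 0.30 for ASNS, -0.24 to 0.23 for PSAT1 and -0.32 to 0.21 for MDK.

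With a replicate block by title number 0 genes were called, at 323 unadjusted p-values under 0.05, and PSAT1 was 0.035. Between the groups, deviations of vehicle and midkine libraries of the same number correlated at -0.24 to 0.14 over 5 shared numbers. Of these numbers, 0 of 5 correlated best with their own, so no pairing of vehicle with midkine libraries was seen. Libraries that share a number within 1 group were averaged first, so these values do not say whether those are related. Pairs called by rho and by r were 2 and 2 without midkine 3-2, 3 and 12 with counts summed per title number, and 8 and 9 without midkine 3-2 and midkine 1. Low counts limit TRIB3, CHAC1 and SLC7A11, whose vehicle levels lay at a few CPM, and 15 libraries limit every contrast.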

Other observations

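Relatives of the 10 genes in midkine 3-2 were uneven. TRIB1, a pseudokinase related to TRIB3, was at 179 CPM beside a median of 21.3 in the other 14 libraries, and ATF6, a membrane-bound stress factor, at 202 beside 16.7. SESN1 and CHAC2, paralogs of SESN2 and CHAC1, were at 0.819- and 1.00-fold, while SESN3, another paralog of SESN2, was at 2.21-fold. Over 16 such relatives the median fold was 2.13 and 9 were at least 2-fold up, against 18.8% of all genes tested.

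The proliferation genes moved the other way in midkine 3-2: 15 of 16 lay below the other libraries' median, against 52.4% of all genes tested, 11 were the lowest of the 15 libraries, against 27.6%, and the list's median fold was 0.258. MKI67, a marker of cycling cells, was at 29.5 CPM beside 139.9. The cell cycle inhibitor CDKN1A was at 486 CPM beside 70.0, with 5 of 13 p53 targets, SESN2 among them, at least 2-fold up, against 18.8% of all genes. Outside that library, midkine 5 had the highest ALDH1L2, a mitochondrial folate enzyme, at 166 CPM beside a median of 13.2, and PYCR1, an enzyme of proline synthesis, at 47.1 beside 7.55. The summed fibroblast markers of midkine 5 were at 147328 CPM, against 723 to 11780 in vehicle libraries. Their part in the levels of midkine 5 was not tested.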
